A study of Mus musculus with 4 samples.

Results

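Differentiation of beige adipocyte precursors opened 409 promoter regions in both wild-type cells and cells with an inactive JMJD1A, out of 98469 merged open regions on chromosomes 1 to 19. Each of these opened promoters was chosen by its peak calls: it had an ATAC-seq peak in both libraries after differentiation, no peak in either library before it, and it touched the stretch that begins 1000 bp before an annotated mm9 transcription start site (TSS) and ends 100 bp after it. The number, the absence before differentiation and the presence after it are therefore the selection itself and are given as description. Of the 17174 merged regions at promoters, 11769 had a peak in both libraries after differentiation, and the opened promoters were 3.48% of those (95% Wilson interval 3.16% to 3.82%).

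ATAC-seq marks accessible chromatin, because the Tn5 transposase cuts and tags DNA that is not wrapped in nucleosomes. The cells were im-scWAT cells, an established culture from the stromal vascular fraction of subcutaneous white adipose tissue of 5-week-old mice, immortalised with the SV40 large T antigen and selected with puromycin. Cells of genotype Jmjd1a +/+ (WT) were compared with cells of genotype Jmjd1a HY/HY (HY), in which a histidine-to-tyrosine change inactivates this histone H3 lysine 9 demethylase. Nuclei were taken before differentiation on day 0 (D0) or after it on day 8 (D8), that is, after 2 days in indomethacin, dexamethasone, 3-isobutyl-1-methylxanthine, rosiglitazone, insulin and T3, and 6 days in insulin, T3 and rosiglitazone only. Both genotypes were immortalised and differentiated in the same way. The labels tell apart no lines within a genotype, and there was 1 library for each genotype and day, so every difference below is between libraries and the intervals cover counting error only.

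When a preadipocyte becomes an adipocyte, early C/EBP factors give way to PPARγ and C/EBPα, which bind together near genes for lipid uptake, storage and adipokines. PPARγ binds DNA as a dimer with RXR and is activated by rosiglitazone, one of the agents in the medium. Many mammalian promoters are CpG islands that are open in most cell types, whereas promoters used in few cell types often lack CpG islands. A gene can also have several promoters, of which one may serve a single tissue, and Pparg itself is the textbook case in fat: its second promoter gives the adipocyte isoform.

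The following windows, up to 100 bp on either side of a summit and trimmed to leave out annotated exons, were read from the mm9 reference on the strand of the gene and are written 5′ to 3′. The first set shows opened promoters of adipocyte genes with the C/EBP motif TTGCNNAA, on either strand, in capitals: Pparg at chr6:115371694-115371894, Cidec at chr6:113384924-113385124, Plin1 at chr7:86877672-86877872 and Pck1 at chr2:172977400-172977600. Cidec and Plin1 are on the minus strand and Pparg and Pck1 on the plus strand.
Pparg: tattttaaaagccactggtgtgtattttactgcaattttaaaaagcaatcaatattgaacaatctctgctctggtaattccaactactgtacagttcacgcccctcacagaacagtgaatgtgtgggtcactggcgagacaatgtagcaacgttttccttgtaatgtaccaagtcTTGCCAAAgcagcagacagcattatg
Cidec: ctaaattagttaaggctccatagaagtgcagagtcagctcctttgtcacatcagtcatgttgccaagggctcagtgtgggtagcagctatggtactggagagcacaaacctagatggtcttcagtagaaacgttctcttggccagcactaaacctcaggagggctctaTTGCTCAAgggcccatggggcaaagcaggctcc
Plin1: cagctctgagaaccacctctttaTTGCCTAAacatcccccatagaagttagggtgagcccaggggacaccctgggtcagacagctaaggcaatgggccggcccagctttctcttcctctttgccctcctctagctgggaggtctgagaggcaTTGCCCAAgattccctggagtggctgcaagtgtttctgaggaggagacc
Pck1: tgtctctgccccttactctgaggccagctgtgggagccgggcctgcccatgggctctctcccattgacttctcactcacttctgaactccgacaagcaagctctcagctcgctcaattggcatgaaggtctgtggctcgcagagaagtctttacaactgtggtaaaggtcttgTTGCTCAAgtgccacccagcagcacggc

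The second set shows opened promoters with a match to the DR1 element of PPAR:RXR in capitals, defined as copies of AGGTCA 1 base apart with up to 2 mismatches on either strand: Acacb at chr5:114596124-114596324, Pnpla2 at chr7:148642815-148642916, Cpt1b at chr15:89256351-89256551, Cd36 at chr5:17341715-17341786 and the strongest member, Alg9, at chr9:50643326-50643526. Cpt1b and Cd36 are on the minus strand and the other 3 on the plus strand. The promoter of Adipoq at chr16:23146482-23146608 on the plus strand, is a classical adipocyte promoter in which neither set of letters occurred, so nothing is capitalised. The last sequence, Ppargc1a at chr5:51945161-51945277 on the minus strand, is the single opened promoter with the cyclic AMP response element (CRE) TGACGTCA, shown in capitals.
Acacb: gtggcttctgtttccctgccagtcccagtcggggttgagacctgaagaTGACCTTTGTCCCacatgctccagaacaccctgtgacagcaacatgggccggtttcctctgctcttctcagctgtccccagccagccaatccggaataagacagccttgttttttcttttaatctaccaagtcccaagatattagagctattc
Pnpla2: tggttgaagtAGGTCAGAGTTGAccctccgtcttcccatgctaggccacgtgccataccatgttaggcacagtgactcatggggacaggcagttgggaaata
Cpt1b: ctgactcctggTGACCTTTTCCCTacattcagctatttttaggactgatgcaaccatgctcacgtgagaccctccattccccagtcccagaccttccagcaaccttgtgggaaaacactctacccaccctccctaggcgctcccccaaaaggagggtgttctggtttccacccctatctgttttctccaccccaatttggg
Cd36: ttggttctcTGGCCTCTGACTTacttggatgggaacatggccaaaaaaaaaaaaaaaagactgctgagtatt
Alg9: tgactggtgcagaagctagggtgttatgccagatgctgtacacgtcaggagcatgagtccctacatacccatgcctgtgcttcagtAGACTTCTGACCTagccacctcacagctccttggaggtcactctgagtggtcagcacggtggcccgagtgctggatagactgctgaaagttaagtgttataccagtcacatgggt
Adipoq: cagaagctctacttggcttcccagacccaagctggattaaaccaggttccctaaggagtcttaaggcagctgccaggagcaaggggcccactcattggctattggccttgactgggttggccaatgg
Ppargc1a: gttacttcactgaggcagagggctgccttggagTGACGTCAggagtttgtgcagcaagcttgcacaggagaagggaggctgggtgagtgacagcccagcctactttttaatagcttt

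Before differentiation the lists had 71523 (WT) and 77994 (HY) peaks, and after it 41228 (WT) and 48964 (HY). Summit pileup, the number of overlapping sequenced tags at the highest point of a peak, was solved from the enrichment and p-value of each peak. Relative to WT D0, depth was 1.07 in HY D0, 0.806 in WT D8 and 0.75 in HY D8, so the absence of a D0 peak was judged in the deeper libraries. A peak over the genome-wide background needed a pileup of at least 5 tags, or of 4 in HY D8, and more where the local background was higher. A region without a peak may still hold tags below its own limit. The reverse class, closed promoters with a peak in both D0 libraries and in neither D8 library, numbered 1827, or 0.224 opened promoters for each closed one. This ratio was 1.20 when all lists were cut to 41228 peaks by p-value, with 790 opened promoters, so the balance of opening and closing depended on list length.

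Opened promoters were smaller and weaker than promoters open in all 4 libraries. Their median summit pileup was 14 tags in WT D8 (quartiles 10 and 21, range 5 to 69) and 15 tags in HY D8 (quartiles 10 and 22, range 5 to 67). The 11162 promoters open in all 4 libraries had medians of 27 tags in WT D8 and 28 tags in HY D8. Median width was 273 bp against 827 bp in the always-open promoters and 288 bp in the closed promoters. Among the opened promoters, 402 had exactly 1 peak in each D8 list, 284 reached 10 tags in both libraries, and 244 reached a −log10 q of 5 in both. The median distance between the WT and HY summits was 35 bp, and 253 members (61.9%) had summits within 50 bp of each other, in regions whose width limits the distance. In the always-open promoters this median was 29 bp.

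**Figure D1:**
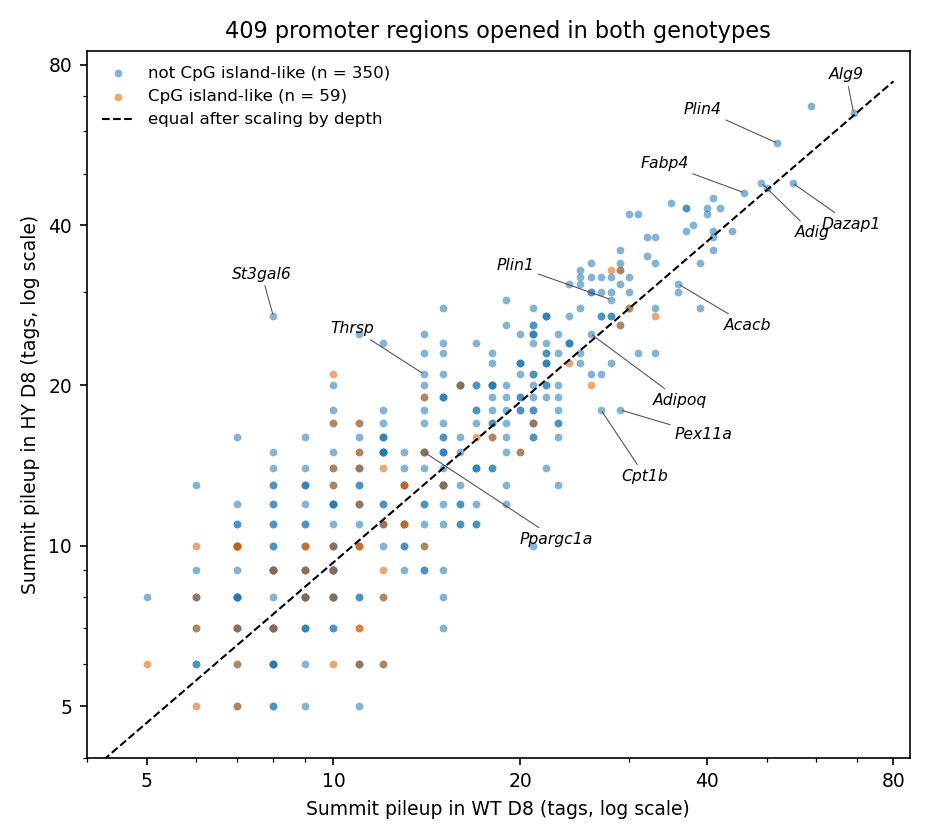
Summit pileup of the 409 opened promoters in WT D8 (x axis) and HY D8 (y axis), in tags on log scales, with 1 point per region and the line of equal pileup after scaling by depth. The points follow the line from 5 tags up to 69, and CpG island-like members (orange) lie mostly at low pileup, with medians of 11 tags in WT and 10 tags in HY.

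The 409 regions belonged to 400 genes, of which 337 were protein-coding, 1.57% of the 21418 protein-coding genes annotated on these chromosomes. The nearest TSS was that of a protein-coding gene for 351 members (85.8%, 82.1% to 88.9%), of a processed transcript for 21, of a lincRNA for 15, of a pseudogene for 8, of a small nuclear RNA for 8 and of a microRNA for 4 (mmu-mir-2134-2, AC154124.1, Mir293 and Mir26a-1). In 18 members the window held TSSs of more than 1 gene, and in 14 of these cases the genes lay on opposite strands. A total of 27 genes had more than 1 opened promoter region. Akt2, the insulin-signalling kinase of fat and muscle, and Cd36, the fatty acid transporter, had 3 each. Density was highest on chromosome 19 with 2.93 members per 10 Mb and on chromosome 11 with 2.63, and it was lowest on chromosome 18 with 0.551, where 5 members lay (Reep5, Rnf125, Zeb1, Fgf1 and a U1 gene). These densities are per length and were not set against the genes or promoter regions of each chromosome.

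The opened promoters sat at start sites inside genes more often than always-open promoters did. The share of all annotated TSSs that lie inside genes was not computed, so a preference for such sites is not shown. The TSS was more than 1000 bp downstream of the gene's most upstream TSS in 174 members (42.5%, 37.8% to 47.4%). This share was 12.3% (11.7% to 12.9%) in always-open promoters and 32.4% (30.3% to 34.6%) in closed promoters, and the 3 intervals did not overlap. With lists of equal length it was 34.9% of opened and 32.2% of closed promoters, against 11.2% of always-open ones, so the gap between opened and closed promoters was largely lost. Of the 400 genes, 250 had another TSS window without an opened promoter, and 169 (42.3%, 37.5% to 47.1%) had such a TSS that was already open in both D0 libraries. This count leaves out start sites whose own window held the opened region. Counting any promoter region of the gene, 199 of the 337 protein-coding genes (59.1%, 53.7% to 64.2%) also had one that was open in all 4 libraries, a state found in 51% of all protein-coding genes. The summit itself lay in an intron in 186 members, in an exon in 107 and between genes in 116.

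Summits were spread further upstream than at constitutive promoters. The strongest D8 summit lay within 100 bp of the nearest TSS in 149 opened promoters (36.4%, 31.9% to 41.2%), compared with 64.5% of the always-open promoters and 36.2% of the closed promoters. It lay 100 to 1000 bp upstream in 199 members (48.7%), more than 1000 bp upstream in 30 and more than 100 bp downstream in 31. The median position was −165 bp, against −35 bp in always-open and −130 bp in closed promoters. In this respect opened and closed promoters had similar values, and both differed from the always-open class.

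**Figure D2:**
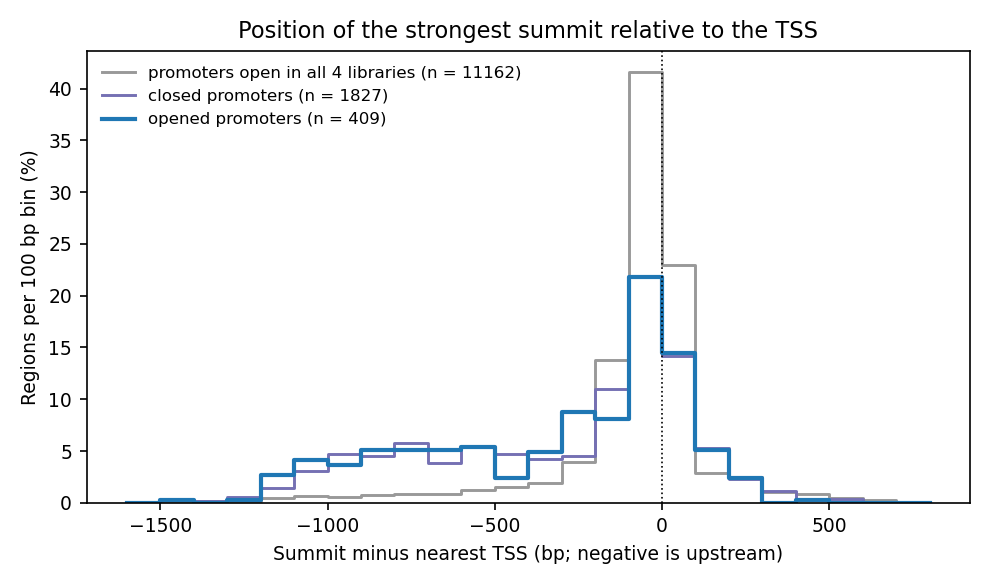
Distance from the nearest TSS to the strongest summit of a region (x axis, bp, negative upstream) and share of regions per 100 bp bin (y axis, %), for opened, closed and always-open promoters. Within 100 bp of the TSS lie 36.4% of the opened and 64.5% of the always-open promoters, and the opened promoters form a shoulder that reaches 1000 bp upstream.

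Base composition set the opened promoters apart from the constitutive ones. Over 501 bp around the summit, median GC content was 51.1% in opened promoters (quartiles 46.1% and 56.3%), 62.7% in always-open promoters and 52.3% in closed promoters. The median observed-to-expected CpG ratio was 0.240 in opened promoters, 0.789 in always-open promoters and 0.347 in closed promoters. A window was called CpG island-like when its GC content was at least 50% and this ratio at least 0.6. By that rule 59 opened promoters were CpG island-like (14.4%, 11.4% to 18.2%), compared with 77.7% (76.9% to 78.5%) of always-open promoters and 22.1% (20.3% to 24.1%) of closed promoters. Sites that opened away from promoters were lower still, at 1.21% inside genes and 0.452% between genes. With lists of equal length the share rose to 34.7% of opened and was 20.1% of closed promoters, so the order of these 2 classes turned, while always-open promoters stayed higher at 79.3%.

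The CpG island-like members were the weaker ones. Their median −log10 q in the weaker D8 library was 3.97, against 6.65 in the 350 members without a CpG island-like window, and 15 of 59 (25.4%) against 229 of 350 (65.4%) reached 5 in both libraries. They also lay less often at an internal TSS, since 12 of 174 internal members (6.90%) and 47 of 235 others (20%) were CpG island-like. Rbp4, which encodes the retinol carrier RBP4, was one of them, with 11 tags in WT D8, 17 tags in HY D8, a GC content of 73.3% and a CpG ratio of 0.953. A strong exception was Ism1, a gene for a secreted protein, with 29 tags in WT D8, 33 tags in HY D8 and a CpG ratio of 0.627, just above the limit.

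**Figure D3:**
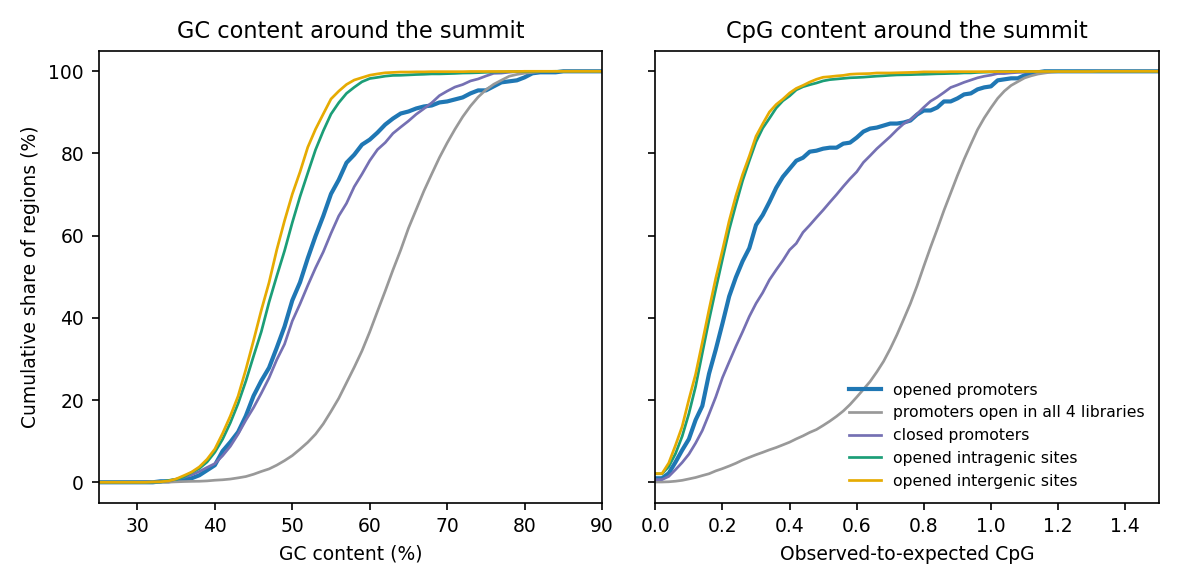
Cumulative share of regions (y axis, %) by GC content (left, %) and by the observed-to-expected CpG ratio (right) in 501 bp around the summit, for opened promoters and 4 other classes of region. The opened promoters have a median CpG ratio of 0.240, far below the 0.789 of the always-open promoters, and from 34% to 40% GC their curve lies under that of the closed promoters.

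The strongest opened promoters, ranked by −log10 q in their weaker D8 library, included several start sites inside genes that were open at D0. Alg9, which encodes a mannosyltransferase of N-glycan assembly, had 69 tags in WT D8 and 65 tags in HY D8 at chr9:50643103-50643718, in an intron 250 bp upstream of a TSS that lies 60552 bp inside the gene. Dazap1, encoding an RNA-binding protein, had 55 tags in WT D8 and 48 tags in HY D8 at a TSS 21381 bp inside the gene. Qsox1, a sulfhydryl oxidase gene, had 44 and 39 tags at a TSS 17466 bp inside. Each of these genes had another TSS that was open at D0, with the opened region as an addition. Lrrc27 had 40 tags in WT D8 and 43 in HY D8, also in an intron.

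Other leading members were known fat or lipid genes. Adig (adipogenin), a small membrane protein gene of adipocytes, had 49 tags in WT D8 and 48 tags in HY D8, with the summit 47 bp upstream of the TSS at chr2:158327949-158328601. Acaca, which encodes acetyl-CoA carboxylase 1 and makes the malonyl-CoA for fatty acid synthesis, had 39 tags in WT D8 and 34 tags in HY D8 at a TSS 43450 bp inside the gene. Acox2, a peroxisomal acyl-CoA oxidase gene, had 29 and 34 tags at chr14:9091295-9091649. Acaca also had another TSS that was open at D0, whereas Adig and Acox2 had none. The rest of the top 12 were the lincRNA gene Gm17243 (38 tags in WT D8, 40 in HY D8), the guanylate-binding protein gene Gbp10 (26 and 30), 4931406C07Rik (41 and 45), Ism1 (29 and 33) and the growth factor gene Fgf2 (28 and 32). The Fgf2 region lay at a TSS 68236 bp inside the gene, which had another TSS open at D0.

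Adipocyte identity genes made up the fullest list. Of 25 genes for adipocyte identity and adipokines, 15 had an opened promoter (60%, 40.7% to 76.6%), against 1.57% of all protein-coding genes, in 19 regions. Of these 15 genes, 6 (Pparg, Plin4, Mrap, Aqp7, Adipor2 and Nrg4) also had a promoter region open in all 4 libraries. The same contrast chose the members, and the list was drawn up with earlier results of these data known, so this share is a description. Over the 19 regions the median pileup was 33 tags in WT D8 and 29 tags in HY D8, above the medians of 14 and 15 tags over all members.

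Pparg, the master regulator of fat cell formation, opened at its second promoter, 60845 bp inside the gene. The stronger region, chr6:115371711-115372244, had 37 tags in WT D8 and 39 tags in HY D8, with the summit 290 bp upstream of the TSS, and it holds the C/EBP match printed above. A neighbouring region 934 bp upstream of the same TSS had 20 tags in WT D8 and 22 tags in HY D8. The upstream Pparg promoter was open already at D0.

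The opened promoters of Fabp4, Cd36, Plin1, Plin4 and Cidec, genes of lipid uptake and droplets, had between 23 and 57 tags at D8. Fabp4, the fatty acid chaperone of adipocytes, had 46 tags in WT D8 and 46 tags in HY D8, with the summit 21 bp upstream of the TSS at chr3:10208202-10208797. Cd36 had 41 tags in WT D8 and 36 in HY D8 at a TSS 39167 bp inside the gene, and 40 and 42 tags at a TSS 53063 bp inside. The other Cd36 region, 726 bp upstream of the latter, had 33 tags in WT D8 and 23 in HY D8. Perilipins coat the lipid droplet: Plin1 had 28 tags in WT D8 and 29 tags in HY D8, and Plin4 had 52 and 57 tags. The Plin4 region lay 918 bp upstream of the single annotated TSS, and the gene had another promoter region open in all 4 libraries. It also had a high local background of 12.3 tags in WT D8 and 13.7 tags in HY D8. Its enrichment, the ratio of pileup to background after adding 1 tag to each, was 3.98-fold and 3.95-fold, lower than the 5.45-fold and 5.80-fold of Plin1. Cidec, which promotes droplet fusion, opened at 2 start sites with 42 and 37 tags in WT D8 and 43 tags at each in HY D8.

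Adipokine and receptor genes covered a wide range. Adipoq, which encodes adiponectin, had 26 tags in WT D8 and 25 tags in HY D8, with the summit 27 bp upstream of the TSS at chr16:23146388-23146705. Adipor2, an adiponectin receptor gene, had 33 and 28 tags. Mrap, encoding the accessory protein of the ACTH receptor, had 28 and 27 tags, and Lgals12, the gene of an adipocyte galectin, had 26 and 32. The depth-scaled HY to WT ratio was 1.32 (0.763 to 2.31) at Lgals12 and 1.04 (0.587 to 1.82) at Mrap. Nrg4, a secreted growth factor gene, had 18 tags in WT D8 and 17 in HY D8 at a TSS 43219 bp inside the gene. Apoc1 had 14 and 17 tags, and Aqp7, the glycerol channel gene, had 11 and 13.

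The remaining adipocyte genes showed other patterns. Cebpa, the partner of PPARγ, was open throughout, with 61 tags at D0 and 57 at D8 in WT and with 55 at D0 and 61 at D8 in HY. Lpl, encoding lipoprotein lipase, was also open before differentiation, with 27 tags in WT D0, 29 in HY D0 and 53 in each D8 library. Fabp5, Retn and Slc2a4 likewise had a promoter open in all 4 libraries, whereas Cfd, Lep, Sncg and Apoe had no promoter peak.

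**Figure D4:**
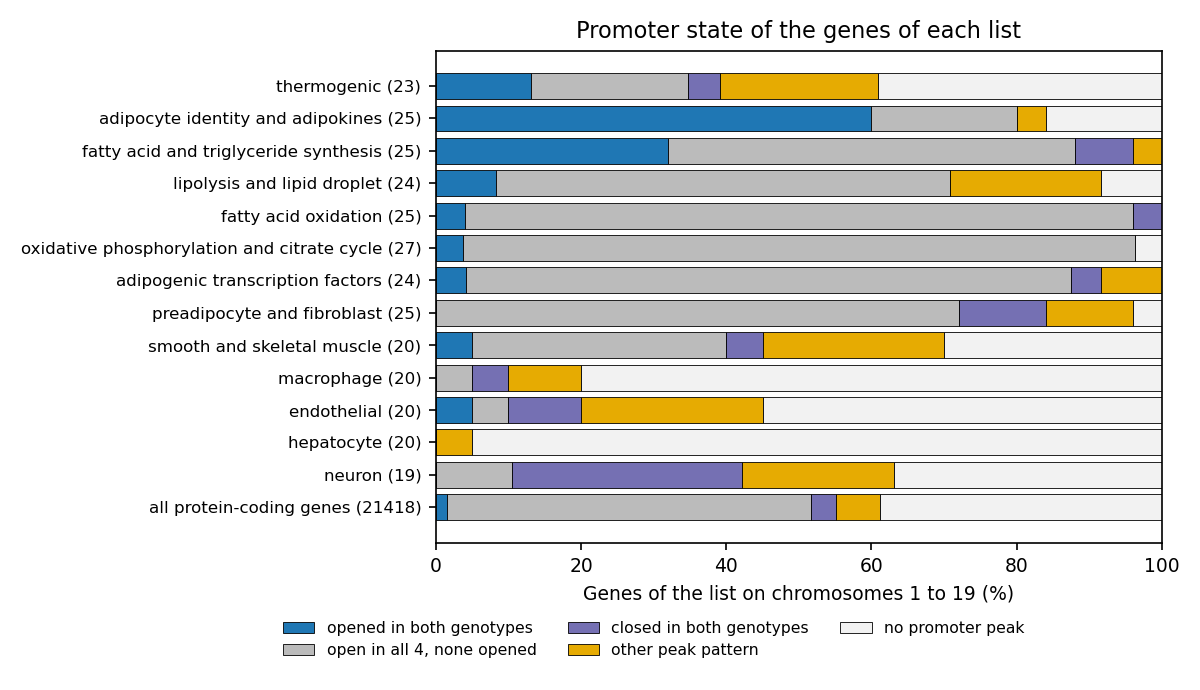
Promoter state of the genes of 13 lists and of all protein-coding genes (y axis, number of genes in parentheses), as a share of the genes on chromosomes 1 to 19 (x axis, %). Opened promoters (blue) make up 60% of the adipocyte list, 32% of the synthesis list and 13% of the thermogenic list, against 1.57% of all protein-coding genes.

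Fatty acid and triglyceride synthesis had 8 of 25 genes with an opened promoter (32%, 17.2% to 51.6%), and 6 of the 8 also had a promoter open in all 4 libraries. Acacb, the gene of acetyl-CoA carboxylase 2, had 36 tags in WT D8 and 31 tags in HY D8, 320 bp upstream of the TSS, with the DR1 match printed above. Gpd1, whose enzyme makes glycerol 3-phosphate, had 2 regions, with 35 and 24 tags in WT D8 and 44 and 27 tags in HY D8. Dgat1, which completes triglyceride synthesis, had 27 and 32 tags over a high background, which gave 3.16-fold and 3.22-fold enrichment. Thus the synthesis genes included both strong and modest openings. Thrsp, a lipogenesis gene, had 14 tags in WT D8 and 21 tags in HY D8, and Mogat1, a monoacylglycerol acyltransferase gene, had 14 and 12. Acsl1, which activates fatty acids, had 14 and 11 tags at a TSS 19933 bp inside the gene. Pck1, the glyceroneogenic enzyme gene, had the lowest pileups of the list, 10 tags in WT D8 and 7 in HY D8. Fasn, Acly, Scd1 and Srebf1 were among the 14 genes that were open in all 4 libraries and had no opened promoter. In the other direction Gpam and Mogat2, both acyltransferase genes, were closed (2 of 25, 8%, against 3.56% of all protein-coding genes).

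Thermogenic genes contributed 3 of 23 (13%, 4.54% to 32.1%). Ppargc1a, which encodes the coactivator of mitochondrial biogenesis PGC-1α, had 14 tags in WT D8 and 15 tags in HY D8 at chr5:51944968-51945293. The summit of Ppargc1a lay 17 bp upstream of a TSS 13804 bp inside the gene, at the same base in both genotypes. Its window holds the CRE printed above, a site known as a binding site of the cAMP-responsive factor CREB. Cpt1b, the muscle-type carnitine palmitoyltransferase gene, had 27 tags in WT D8 and 18 in HY D8. Kcnk3, a potassium channel gene, had 22 and 27 tags 985 bp upstream of its single TSS, and was the 1 of these 3 genes with another promoter region open in all 4 libraries. The depth-scaled HY to WT ratio was 1.15 for Ppargc1a (0.518 to 2.57), 0.716 for Cpt1b (0.372 to 1.35) and 1.32 for Kcnk3 (0.723 to 2.43), and each interval included 1. Ucp1, the uncoupling protein that defines thermogenic fat, had no promoter peak in any of the 4 libraries. Ppargc1b, Elovl3, Ppara, Cox7a1 and Gmpr were open in all 4 libraries, and Prdm16 had a closed promoter, with 7 tags in WT D0 and 19 in HY D0, and separate D8 peaks of 11 tags in WT D8 and 12 tags in HY D8 that did not overlap each other. Cidea missed selection through a weak peak of 7 tags in HY D0, with 9 tags in WT D8 and 13 in HY D8.

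Lipid breakdown, oxidation and respiration genes were mostly open in all 4 libraries, the state of 50.1% of all protein-coding genes. In lipolysis, 2 of 24 genes opened: Pnpla2, encoding adipose triglyceride lipase, with 33 tags in WT D8 and 34 tags in HY D8, and the carboxylesterase gene Ces1d with 10 and 15. G0s2, the inhibitor of that lipase, missed selection through 7 tags in HY D0, with 34 tags in WT D8 and 37 tags in HY D8, and Plin5 had a peak of 23 tags in WT D8 only. Of 25 fatty acid oxidation genes, 23 were open in all 4 libraries only and 1, Pex11a, opened at an internal TSS. Of 27 genes of oxidative phosphorylation and the citrate cycle, 25 were open in all 4 and 1, the citrate synthase gene Cs, had an additional opened region 840 bp upstream of its TSS, with 18 tags in WT D8 and 20 in HY D8. Among 24 adipogenic transcription factor genes, 20 were open in all 4 and Tle3, a corepressor gene, had an opened region with 22 and 23 tags. Ebf2 was closed, with 17 tags in WT D0 and 15 in HY D0 (1 of 24, 4.17%, against 3.56% of all protein-coding genes). These counts depended on the settings: the Cs call was lost at a −log10 q of at least 5, with the summit inside the window and with no D0 peak within 500 bp, and with lists of equal length 7 of these factor genes and 5 of the lipolysis genes had an opened promoter. Rxrg, which encodes an RXR, missed selection through 6 tags in WT D0, with 27 tags in WT D8 and 31 in HY D8.

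Over 6 marker lists of other cell types, 2 of 124 genes had an opened promoter (1.61%, 0.443% to 5.69%), a share near the 1.57% of all protein-coding genes. None of 25 preadipocyte and fibroblast genes opened, and 18 were open in all 4 libraries (72%, against 50.1% of all protein-coding genes). A further 3 (Cd34, Thy1 and Col3a1) were closed (12%, against 3.56% of all protein-coding genes). The single openings elsewhere were Lmod1, a smooth muscle gene, with 21 tags in WT D8 and 18 in HY D8 (1 of 20 muscle genes), and Egfl7, an endothelial gene, with 22 and 20 tags (1 of 20). The Lmod1 call was lost with no D0 peak within 500 bp. None of 20 macrophage, 20 hepatocyte or 19 neuronal genes had an opened promoter, and 16 of the macrophage and 19 of the hepatocyte genes had no promoter peak in any library, as did 38.9% of all protein-coding genes. Of the neuronal genes, 6 were closed (31.6%).

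C/EBP and PPAR:RXR motifs were more frequent in opened promoters than in other promoters. Within 100 bp of the summit, TTGCNNAA occurred in 89 opened promoters (21.8%, 18% to 26%), in 5.17% of always-open promoters, in 5.86% of closed promoters and in 5.52% of windows of the same length centred on all protein-coding TSSs. The DR1 element occurred in 29 opened promoters (7.09%, 4.98% to 10.0%), in 1.43% of always-open and 2.30% of closed promoters, and in 2.28% of all TSS windows. In sites that opened away from promoters, C/EBP occurred in 26.3% (24.8% to 27.8%) inside genes and 28.9% (27% to 30.8%) between genes, both above the interval of opened promoters. DR1 occurred in 8.13% and 6.82% of them. Base composition differs between these classes, as given above, and its part in the shares was not tested. A match is a string of letters, not a bound site.

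Both motifs occurred together in 6 opened promoters (Acox2, Gm11773, Adcy10, Syne2, 1300015D01Rik and Glyctk), and 112 (27.4%) had at least 1 of them. The C/EBP share was 29.4% (22.4% to 37.6%) in the 136 strongest members by −log10 q and 14% (9.13% to 20.8%) in the 136 weakest. By position, it was 27.1% in members with the summit 100 to 1000 bp upstream of the TSS and 14.8% in those with the summit within 100 bp. Members at internal start sites (20.7%) and other members (22.6%) had overlapping intervals. In CpG island-like members 1 of 59 (Phf21a) had a C/EBP match, against 88 of 350 others. Among 48 named members off chromosome 18, 12 had a C/EBP match, 9 a DR1 match and 1, Acox2, both.

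Motifs of constitutive promoters were scarce in the opened ones. The GC box GGGCGG occurred in 15.4% (12.2% to 19.2%) of opened promoters, against 62.4% of always-open and 24.9% of closed promoters. With lists of equal length it was 30.6% of opened and 23.1% of closed promoters, so the order of these classes turned. The ETS motif CCGGAAG occurred in 3 opened promoters (B430010I23Rik, Gm14066 and Zfp641, 0.733%), against 15.1% of always-open promoters, and the CRE TGACGTCA in 1 (Ppargc1a, 0.244%), against 2.71%. With lists of equal length ETS was in 2.66% of opened, 3.18% of closed and 15.9% of always-open promoters. The AP-1 motif TGANTCA occurred in 3.91% (2.42% to 6.26%) of opened promoters, near the 4.17% of always-open promoters and the 3.97% of all protein-coding TSS windows. Closed promoters stood apart, with 19.5% (17.7% to 21.4%). EBF (TCCC and GGGA 2 bases apart) occurred in 5 opened promoters (Casz1, Sun2, Gm16143, BC024139 and Aig1), the full NFI site (TTGGC and GCCAA 5 bases apart, up to 1 mismatch) in 8, the glucocorticoid receptor element (AGAACA and TGTTCT 3 bases apart, up to 2 mismatches) in 5 (Adh1, Gm10309, Amy1, Gm14066 and Sult1a1) and the ERR motif TCAAGGTCA in 1 (B430010I23Rik). These are shares of 1.22%, 1.96%, 1.22% and 0.244%, against 0.699%, 0.717%, 0.430% and 0.152% of always-open promoters, 0.930%, 0.657%, 1.48% and 0.274% of closed promoters and 0.633%, 0.511%, 0.983% and 0.219% of all protein-coding TSS windows. TATAAA between 40 and 20 bp upstream of the TSS occurred in 8 opened promoters (1.96%, 0.994% to 3.81%), in 0.690% of always-open promoters and in 1.53% (1.06% to 2.21%) of closed promoters, a share inside the interval of the opened ones. All motifs were searched on both strands, TATAAA on the strand of the gene only, and the DR1 and ERR letters share the half-site AGGTCA.

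**Figure D5:**
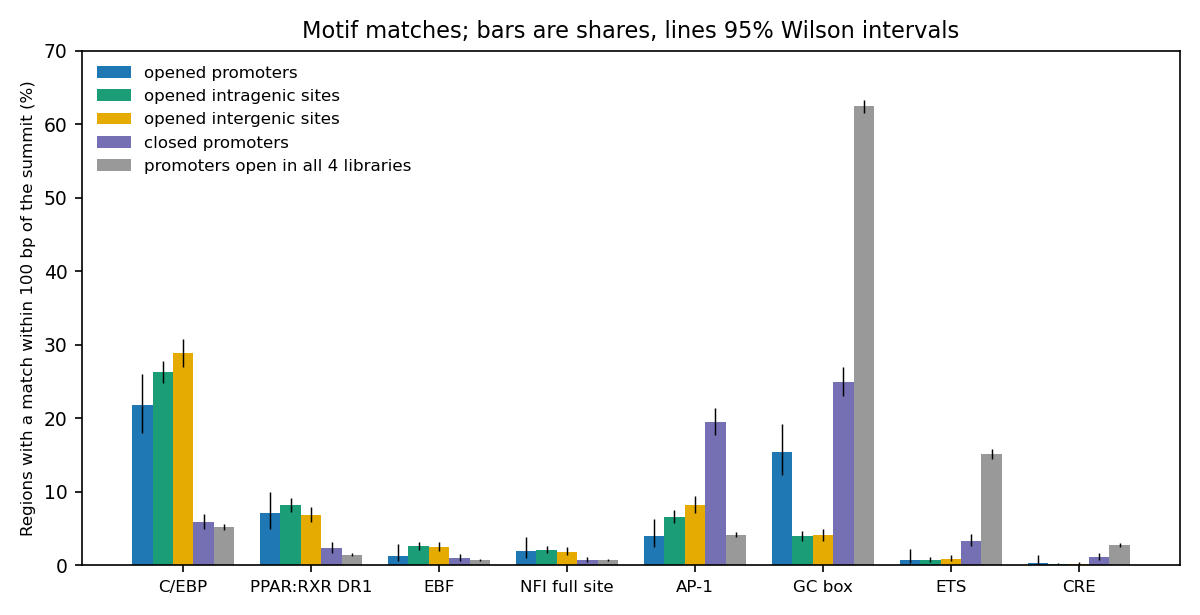
Share of regions with a match to each of 8 motifs within 100 bp of the summit (y axis, %, bars, with 95% Wilson intervals as lines) in opened promoters and 4 other classes. The C/EBP bar stands at 21.8% in opened and 5.17% in always-open promoters, whereas the GC box bar stands at 15.4% and 62.4%.

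Opened promoters were often near other sites that opened. An opened site away from promoters lay within 50 kb of the summit in 225 members (55%, 50.2% to 59.8%), compared with 33.2% of always-open and 28.9% of closed promoters. These neighbours come from the same contrast as the members, so the shares are descriptive. Adipocyte genes gave close examples, with such a site 849 bp from the upstream Cd36 summit, 1253 bp from that of Adig and 1933 bp from that of Adipoq. Another opened promoter lay within 50 kb of 73 members.

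The 2 genotypes had similar pileups at the opened promoters. The regions were selected to have a peak in both, so similar pileups were partly set by the selection. Members have no D0 value and each genotype had 1 library at D8. How far they opened, and any effect of JMJD1A activity on it, was therefore not tested. The median depth-scaled HY to WT ratio was 1.07 (quartiles 0.921 and 1.32), and it was 1.12 at the always-open promoters. It was also 1.07 at sites that opened inside genes and between genes. This is the ratio that scaling by depth gives to a region with equal tag counts in the 2 libraries. When the always-open promoters were set to a ratio of 1, the median of the opened promoters was 0.963, so the direction depended on the scaling. A ratio above 2 was found in 9 members (2.20%), against 0.765% of the 11769 promoters with a peak in both D8 libraries. In opened sites away from promoters the shares were 1.82% inside genes and 2.08% between genes, both within the interval of the opened promoters (1.16% to 4.13%). A ratio below 0.5 was found in 1 member, a U1 gene with 11 and 5 tags (0.244%), against 0.28% of those promoters. The 95% interval of the ratio lay above 1 in 5 members (1.22%, against 0.699% of always-open promoters) and below 1 in 0. These 5 were St3gal6, Echdc1, Macf1, Ampd3 (12 and 24 tags) and E230028L10Rik (15 and 28 tags), and no correction for the number of members was applied. The lower limits at Macf1 (1.02), Ampd3 (1.03) and E230028L10Rik (1.04) lay under the always-open median of 1.12. With always-open promoters set to a ratio of 1, these intervals would include 1.

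At the extremes, among the 197 members with at least 30 tags in the 2 libraries together, St3gal6 was highest. This sialyltransferase gene had 8 tags in WT D8 and 27 tags in HY D8, a ratio of 3.63 (1.60 to 9.23). Echdc1, an ethylmalonyl-CoA decarboxylase gene, had 11 and 25 tags, a ratio of 2.44 (1.16 to 5.50). Macf1, a cytoskeletal linker gene, had 10 and 21 tags, a ratio of 2.26 (1.02 to 5.37). In all 3 the WT peak was present but weak, and the HY pileup was above the member median of 15 tags. At the low end, Gm16143 had 21 tags in WT D8 and 10 tags in HY D8, a ratio of 0.512 (0.215 to 1.13). Ranbp9 had 23 and 13 tags (0.607, 0.283 to 1.25), and Pex11a, a peroxisome division gene, had 29 and 18 tags (0.667, 0.349 to 1.24). The intervals of these 3 included 1.

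Values at the edges of the selection show how sharp it is. The weakest members were Acss1, an acetyl-CoA synthetase gene, with 6 tags in WT D8 and 8 in HY D8, Whsc1 with 10 and 17, and the region at Mir26a-1 within Ctdspl with 10 and 20. Their −log10 q in the weaker library lay between 1.95 and 2.05. Just outside stood 198 promoter regions with peaks in both D8 libraries and a peak in exactly 1 D0 library, 65 in WT D0 and 133 in HY D0, with a median D0 pileup of 12 tags. Among the closest misses were 2310042D19Rik with 5 tags in HY D0 and 7 and 8 tags at D8, and 8430408G22Rik with 5 tags in HY D0 and 22 and 17 tags at D8.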

How the data were processed

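ATAC-seq peaks of 4 libraries (1 per group, from the labels) were analysed. Per the labels and the study's methods, the authors trimmed, aligned (Bowtie2, mm9) and removed duplicates (Picard), and called peaks per library. MACS3 is named for the matching ChIP-seq procedure. Versions, the calling threshold and any Tn5 shift are not given in the sources used here. The authors deposited fold enrichment (a ratio of summit pileup to local background, which the values fit with 1 added to each), −log10 p, −log10 q and a score that is a rescaled −log10 q and was not used. Values were not normalised between libraries.

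Pileup and background were solved from the deposited ratio and −log10 p. All peaks (100%) were solved within 0.002. The solving was first tried on simulated peaks, whose backgrounds did not reach those of members such as Plin4 and Dgat1. The lowest background gave relative depth. Absolute depth is unknown. Lists were merged by 1 bp overlap (BEDTools 2.31.1 gave the same number of regions) and set against GENCODE TSSs of mm9 (positions −1000 to +100), with bases read by SAMtools 1.23.1. Wilson intervals (95%) and exact conditional binomial intervals cover counting error only. With no replicates no test was run. Named genes were the 12 strongest members, those on 13 gene lists, the 3 highest and 3 lowest ratios among members with at least 30 tags, and 3 on each side of the selection edge, of which 1 outside it is not reported here. Members behind counts of 6 or fewer were named after their values were seen. Members and lists were chosen with earlier results of these data known. Alternatives were list length, −log10 q, promoter window, summit position, TSS type, merging distance, D0 distance, motif window, CpG limit and ratio scaling. PCR duplicates were removed by position, not by molecular identifiers.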

Additional observations from a re-analysis of the deposited data

How the results depend on the processing

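Of 223 alternative values, 180 stayed within the counting error or within 1.5 times of the value given above, 42 moved and 1 changed direction. The number of opened promoters (409) was 790 with lists of equal length, 243 at a D8 −log10 q of at least 5 and 807 with a window of 2000 bp before to 1000 bp after the TSS. Their share of promoters with a peak in both D8 lists (3.48%) was 6.87%, 2.29% and 6.03% under these settings, 3.09% with the summit inside the window and 2.69% with no D0 peak within 500 bp. Opened per closed promoter (0.224) was 1.20 with equal lengths and 0.0905 at the q limit. CpG island-like members (14.4%) were 34.7% and 6.17%, and C/EBP matches (21.8%) were 16.2% and 27.2%, in the same order. Searching 250 bp to each side, a longer window, gave 33.3% for C/EBP, 11.5% for DR1, 11.2% for AP-1, 5.38% for the glucocorticoid receptor element, 2.20% for ETS and 24.0% for the GC box. With protein-coding TSSs only, the protein-coding share was 100% by construction and genes with another TSS open at D0 (42.3%) were 49.9%, and with equal lengths 31.7%. The median HY to WT ratio (1.07) was 0.963 with always-open promoters set to 1. Thermogenic genes (3) numbered 6 in the wide window, and synthesis genes (8) numbered 5 at the q limit and 5 with the summit inside the window. Adipogenic factor genes (1) numbered 7 with equal lengths, 4 in the wide window and 0 with no D0 peak within 500 bp, lipolysis genes (2) numbered 5 with equal lengths, and respiration genes (1) numbered 2 in the wide window and 0 at the q limit, with the summit inside the window and with no D0 peak within 500 bp. With equal lengths the GC box (15.4%) was in 30.6%, above the 23.1% of closed promoters, and internal start sites (42.5%) were 34.9%, beside 32.2%. The GC box was in 10.3% at the q limit and 12.1% in the wide window. Muscle genes (1) numbered 0 with no D0 peak within 500 bp, and of the lists with 0, preadipocyte and neuronal genes numbered 1 each with equal lengths and macrophage genes 1 in the wide window. Except where said, causes were not tested. In each of the 7 settings that redefined the classes, C/EBP was more frequent in opened than in always-open and closed promoters. That comparison was added after seeing the data. No paired analysis was possible because the groups share only 1 replicate number and members have no D0 value. With 1 library per group no replicate could be left out. D0 accessibility below the calling limit, 5 tags at the genome-wide background and more where the local background is higher, cannot be seen in these lists.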

Other observations

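Further opened promoters fell into gene groups that were picked after the names of the members had been seen, so they are examples and no share is given. Genes of secreted acute-phase and complement proteins were 1 such group, with 8 regions. C3, the central complement component, had 27 tags in WT D8 and 27 in HY D8. Lcn2 (lipocalin 2) and Orm2 (orosomucoid 2) had 24 tags in each library. Clu (clusterin) had 17 and 20 tags, Hp (haptoglobin) 15 and 16, and Cfb (complement factor B) 15 and 13. The protease inhibitor genes Serpina3c and Serpina3n had 19 and 13 tags and 5 and 8 tags. Receptors for metabolites and hormones were another. O3far1, the long-chain fatty acid receptor, had 28 tags in WT D8 and 33 tags in HY D8, and Niacr1, the receptor for nicotinic acid and ketone bodies, had 16 and 11. Gcgr (glucagon receptor) had 16 and 13 tags, Sucnr1 (succinate receptor) 9 and 12, and Klb, the FGF21 co-receptor, 10 and 10.

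Genes of glucose and pyruvate handling gave 9 regions. Akt2 had 32, 14 and 10 tags in WT D8 and 38, 15 and 12 in HY D8 at its 3 regions. Ppp1r3b, a glycogen-targeting subunit gene, had 41 and 38 tags, Dlat of the pyruvate dehydrogenase complex 32 and 35, and Pcx (pyruvate carboxylase) 22 and 27. Pdk1 had 21 and 17 tags, Ldhb 16 and 12, and Mdh1 13 and 10. Peroxisomal and acyl-CoA thioesterase genes gave 7 regions. Besides the leading Acox2 region, a second one had 19 tags in each library. Ephx2, a soluble epoxide hydrolase gene, had 23 and 16 tags and Pex3 10 and 8. The neighbouring thioesterase genes Acot4, Acot5 and Acot6 on chromosome 12 each had an opened promoter, with 10 and 9, 9 and 9, and 11 and 8 tags.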
